A study of Saccharomyces cerevisiae with 8 samples.

Results

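The large subunit of the cytosolic ribosome is the part of the ribosome that forms peptide bonds, and its protein genes in budding yeast were followed here in cells exposed to isopropanol. The members were all genes whose standard name is RPL with a number and an optional A or B, together with the stalk genes RPP0, RPP1A, RPP1B, RPP2A and RPP2B, found on the array by systematic name. The rule gives 81 genes, of which 80 had a probe and were tested among 5816 genes in all. RPL20A was not analysed here. The rule uses names alone and no measured value.

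Ribosomal proteins are among the most heavily transcribed genes of growing yeast, and their mRNAs are known to rise and fall together with nutrients and stress through the factors Rap1, Fhl1, Ifh1 and Sfp1. Most large-subunit proteins are encoded by an A and a B gene left from an ancient genome duplication, and the copies of a pair give identical or nearly identical proteins. The proteins join the ribosomal RNA in order: many in the nucleolus, a few only in the cytoplasm just before the subunit is used.

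Diploid strain BY4743 was placed in YPD, a rich glucose medium, with 0 g/l isopropanol (control, n = 4 arrays) or 40 g/l isopropanol (n = 4 arrays), in 120 ml cultures kept for 3 h at 30 °C with shaking at 130 rpm. Both groups share the strain and medium, and cultures with other doses were not analysed here. Total RNA was hybridised to 1-colour Agilent arrays. The labels do not tie arrays to separate cultures, so p-values reflect only how far arrays of a group vary, and that variation may be technical. In RNA pooled from a culture a change in fewer cells and a change in RNA per cell cannot be told apart.

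The 4 control arrays shared 1 slide and the 4 isopropanol arrays a different one, so slide and isopropanol cannot be told apart in any comparison that follows. The scan-date entries in the file headers also separated the groups, so scan cannot be told apart from isopropanol either. Control array 3 had a scan-date entry of its own. Every level is a log2 signal relative to the 75th percentile of the yeast spots on the same array. In the controls that percentile was 1568 ± 172 signal units (SD, n = 4), and with isopropanol it was 2260 ± 306 (SD, n = 4). A fall therefore means a fall against the rest of the transcriptome. Without scaling between arrays the median change of the members was -0.056 log2 against 0.64 for all genes, and scaled to the spike-in control RNAs it was 0.58 against 1.27. Relative to the 75th percentile, spike-in signals were at -2.62 log2 on isopropanol array 1, while isopropanol arrays 2 to 4 had -1.10 to -0.88 and the controls -0.47 to 0.11. With isopropanol array 1 left out, the spike-in scale gave the members a median of 0.16 against 0.86 for all genes. The gap between members and all genes depends on the processing: it was -0.33 log2 with quantile normalization and -0.42 with normexp background correction. It was -0.69 log2 on the 75th percentile, median, unscaled and spike-in scales alike, because each of them subtracts 1 constant per array. For RPP0, whose fall is given below relative to the 75th percentile, the signal before scaling hardly changed. Its mean processed signal was 102883 on the control arrays and 102830 on the isopropanol arrays.

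Relative to the 75th percentile, the large-subunit genes fell almost as a block. Of 80 genes, 78 were lower with isopropanol at an adjusted p of 0.05 by limma with Benjamini-Hochberg adjustment over all 5816 genes, where 29.7% of all genes tested were lower. One gene, RPL22B, was higher, where 48.1% of all genes were higher, and RPL15B was not called. The split depends on the scale: it was 10 lower and 3 higher without scaling between arrays, where 172 of all 5816 genes were lower and 4366 higher. On the spike-in scale it was 0 lower and 3 higher, where 19 of all genes were lower and 4543 higher. With quantile normalization 63 members were lower, as were 2235 of all genes. Among the genes described below, RPP0, RPP2B, RPL3, RPL5, RPL16A, RPL24B, RPL26A, RPL30, RPL36B, RPL39 and RPL4B were not called lower with that setting. RPL4B, RPL24B and RPL30 were not called lower with normexp background correction. The median change was -0.58 log2, a 1.49-fold fall, and the middle of the members spanned -0.74 to -0.50. The median over all genes was 0.11, with quartiles of -0.21 and 0.44. The members' changes had an SD of 0.23 log2 across genes, against 0.63 across all genes. The falls were modest: 4 members, RPL42B, RPL18B, RPL43B and RPL23B, were at least 2-fold lower, a size reached downward by 1.98% of all genes. In 77 members every isopropanol array lay below every control array, which held for 27.4% of all genes.

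**Figure D1:**
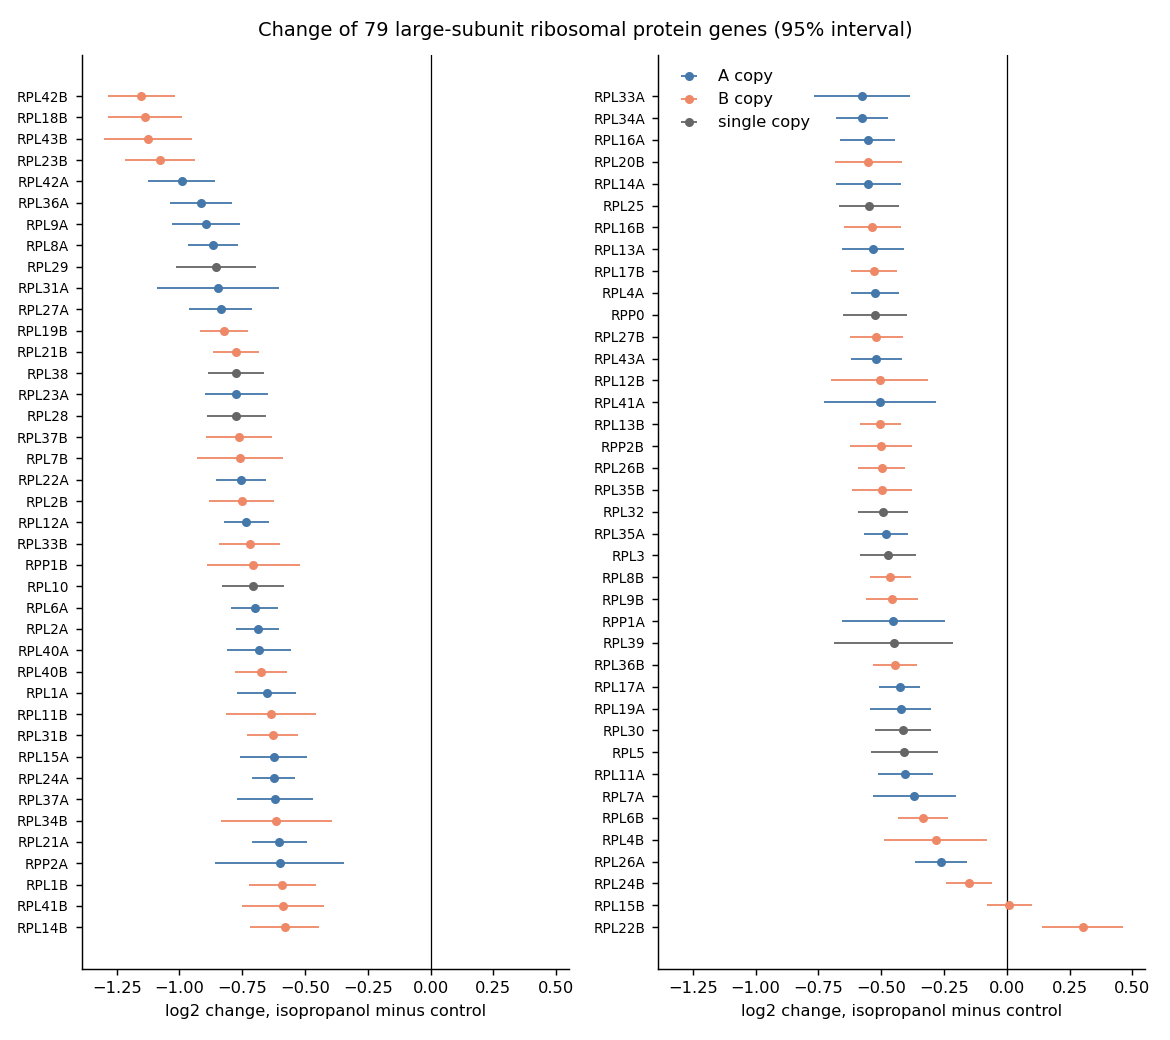
Change of 79 of the 80 large-subunit genes, as log2 isopropanol minus control relative to the 75th percentile of each array, with bars for the 95% interval and points coloured by A copy, B copy or single-copy gene. The called falls shown lie between -1.15 and -0.15, with RPL15B at 0.01 and RPL22B at 0.30 to the right of them.

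The fall was seen on each isopropanol array. The median level over the 80 genes was 3.61, 3.68, 3.55 and 3.73 on control arrays 1 to 4 and 3.04, 3.12, 2.98 and 3.00 on isopropanol arrays 1 to 4. The groups did not overlap in this median, and between 77 and 78 of the 80 genes were below all 4 controls on any given isopropanol array. The share of all genes below the controls was not counted array by array. On all 4 isopropanol arrays at once it was 27.4%.

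**Figure D2:**
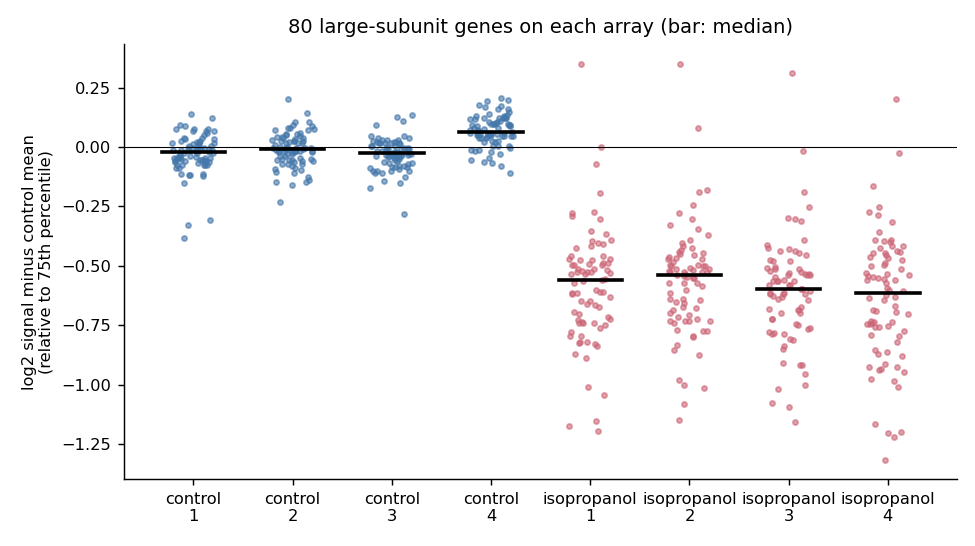
Level of the large-subunit genes on each of the 8 arrays, in log2 relative to that array's 75th percentile and centred on each gene's control mean, with 1 point a gene and a bar at the median. The control arrays have medians between -0.03 and 0.06, and the isopropanol arrays between -0.61 and -0.54.

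Most large-subunit probes were bright, and bright probes as a group tended to be lower with isopropanol. Of the 80 members, 70 were in the top decile of signal of genes, which holds 582 genes with a median change of -0.28. The top decile of signal without any cytosolic ribosomal protein gene held 463 genes, of which 245 (52.9%) were lower and 133 higher, with a median of -0.15. Across all 5816 genes the change fell with signal (Spearman rho -0.41), while across the 80 members it hardly did (rho -0.065, Pearson r -0.12). These correlations are across genes, which share the arrays and are not independent replicates. The part of brightness in the size of the fall was not tested further.

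The stalk is the mobile arm that recruits the translation factors, and RPP0 is its anchor for the acidic P1 and P2 proteins. All 7 stalk genes fell, with a median of -0.53 log2 (-0.73 to -0.45). As 78 of 80 members were lower, against 29.7% of all genes, the counts by role or copy here and below mark out no role or copy. RPP0 stood at 6.05, 6.0, 5.94 and 6.16 on the control arrays and at 5.49, 5.47, 5.48 and 5.62 on the isopropanol arrays. Its groups did not overlap, and it fell by 0.53 log2 (SE 0.06, 1.44-fold lower, adjusted p = 1.27e-05). RPP1A stood at 2.39, 2.37, 2.45 and 2.57 in the controls and at 1.92, 2.25, 2.02 and 1.77 with isopropanol. Its partner RPP1B stood at 2.34, 2.31, 2.25 and 2.35 and then at 1.52, 1.82, 1.70 and 1.39. Both were lower on every isopropanol array than on any control array, and both spread more widely with isopropanol (SD 0.20 and 0.19) than in the controls (SD 0.09 and 0.05). RPP1B fell by 0.71 log2 (1.63-fold, adjusted p = 2.2e-05) and RPP1A by 0.45 (1.37-fold, adjusted p = 0.00111).

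Of the P2 genes, RPP2A stood at 2.32, 2.41, 2.34 and 2.43 in the controls and at 1.85, 1.94, 1.95 and 1.37 with isopropanol. RPP2B stood at 4.85, 4.98, 4.96 and 5.10 and then at 4.48, 4.54, 4.45 and 4.42. RPP2A fell by 0.60 (SE 0.11, adjusted p = 0.000729), with isopropanol array 4 far below the rest, and RPP2B by 0.50 (1.42-fold, adjusted p = 1.29e-05). On isopropanol array 4 the 2 spots of RPP2A read 3698 and 5831 signal units. The remaining stalk genes, RPL12A and RPL12B, encode the protein that sits at the base of the stalk and fell by 0.73 and 0.51.

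The proteins that come into the subunit late, in the cytoplasm, include Rpl10, Rpl24, Rpl29, Rpl40, which is made as a fusion to ubiquitin, and Rpl42, which lines the exit site of the spent tRNA. All 8 of their genes fell, as did 78 of all 80 members. The 8 had a median of -0.69 log2 and the widest range of any role with several members, -1.15 to -0.15. RPL42B stood at 5.04, 5.00, 5.11 and 5.27 in the controls and at 3.93, 4.02, 3.95 and 3.90 with isopropanol. The groups lay well apart, with a fall from 5.11 ± 0.12 to 3.95 ± 0.05 (SD, n = 4 each), which is 2.22-fold (adjusted p = 5.62e-08). RPL42A stood at 5.00, 5.04, 5.06 and 5.26 and then at 4.05, 4.08, 4.09 and 4.18, a fall of 1.99-fold (adjusted p = 1.76e-07).

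RPL29, a single-copy gene, went from 4.36, 4.37, 4.41 and 4.61 to 3.64, 3.70, 3.52 and 3.46, and fell by 0.85 log2 (1.81-fold, adjusted p = 1.59e-06). RPL10, whose protein is among the last to be added, went from 5.33, 5.17, 5.17 and 5.30 to 4.50, 4.55, 4.46 and 4.64, and fell by 0.71 (1.63-fold, adjusted p = 1.13e-06). In both genes the isopropanol arrays lay clear of the controls. The ubiquitin-fusion genes RPL40A and RPL40B both fell by 0.68. RPL24B had the smallest fall of any called member. It stood at 2.19, 2.27, 2.22 and 2.22 in the controls and at 2.15, 2.04, 2.04 and 2.06 with isopropanol, a fall of 0.15 (SE 0.04, 1.11-fold, adjusted p = 0.00661) with no overlap between the groups.

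At the catalytic centre, RPL2A, RPL2B and RPL3 fell by 0.69, 0.75 and 0.47 log2. RPL3 is single-copy and its protein reaches into the peptidyl transferase centre. The genes of the L1 stalk, which guides the spent tRNA out, fell by 0.65 (RPL1A) and 0.59 (RPL1B). Proteins of the particle that carries the small ribosomal RNA of the large subunit, Rpl5 and Rpl11, had the lowest median fall, -0.41 over 3 genes, with RPL5 at -0.41 (adjusted p = 0.000119), RPL11A at -0.40 and RPL11B at -0.64. The difference between roles was not tested.

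Around the exit of the nascent peptide tunnel all 14 genes fell, with a median of -0.50 and a range of -0.85 to -0.26. RPL25, whose protein binds the signal recognition particle, went from 3.79, 3.79, 3.80 and 3.97 to 3.32, 3.31, 3.20 and 3.32, with no overlap (1.46-fold lower, adjusted p = 5.47e-06). RPL39, the small single-copy protein of the tunnel wall, fell by 0.45 (SE 0.11, adjusted p = 0.00284). RPL26A was among the smallest falls, at -0.26 (1.2-fold, adjusted p = 0.000457). RPL4B stood at 4.73, 5.16, 5.18 and 5.15 in the controls and at 4.78, 4.72, 4.80 and 4.78 with isopropanol. Its groups overlap through control array 1, and it fell by 0.28 (SE 0.09, adjusted p = 0.0168), or by 0.39 with that array left out (adjusted p = 2.3e-05, over alternatives 1.92e-06 to 0.186). With control array 3 left out it was -0.24 and just missed the threshold (adjusted p = 0.0509).

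The 43 genes outside these roles fell in 41 cases. RPL18B stood at -0.22, -0.16, -0.12 and -0.07 in the controls and at -1.15, -1.29, -1.22 and -1.46 with isopropanol, and fell by 1.14 (2.20-fold, adjusted p = 1.19e-07). RPL43B went from 4.36, 4.28, 4.47 and 4.63 to 3.24, 3.43, 3.34 and 3.22, a 2.18-fold fall (adjusted p = 4.65e-07). RPL23B went from 1.80, 1.65, 1.78 and 1.89 to 0.63, 0.80, 0.76 and 0.61, a 2.11-fold fall (adjusted p = 1.2e-07). In each of these genes the lowest control was well above the highest isopropanol array. RPL36A went from 3.03, 2.84, 2.85 and 2.85 to 2.02, 2.04, 1.94 and 1.91 (1.88-fold lower, adjusted p = 1.62e-07).

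Of the single-copy genes, 11 of 11 fell, with a median of -0.53 and a range of -0.85 to -0.41. Besides those already given, RPL38 and RPL28 each fell 1.71-fold, RPL32 1.41-fold and RPL30 1.33-fold. RPL28 is the gene in which mutations give yeast resistance to cycloheximide, and it went from 4.88, 4.84, 4.84 and 5.05 to 4.17, 4.11, 4.13 and 4.13. Rpl30 is known to limit the splicing of its own transcript. Among the smallest falls were RPL7A, from 0.06, 0.01, 0.01 and -0.12 to -0.30, -0.29, -0.32 and -0.60 (1.29-fold lower, adjusted p = 0.00101), and RPL6B (1.26-fold lower, adjusted p = 5.48e-05).

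RPL15B and RPL22B did not join the fall. RPL15B stood at -0.47, -0.43, -0.50 and -0.44 in the controls and at -0.46, -0.38, -0.48 and -0.49 with isopropanol. These values interleave, and the change was 0.01 log2 (95% interval -0.08 to 0.10, adjusted p = 0.825). RPL22B stood at -0.25, -0.38, -0.30 and -0.03 in the controls and at 0.11, 0.11, 0.07 and -0.04 with isopropanol. Its means rose from -0.24 ± 0.15 to 0.06 ± 0.07 (SD, n = 4 each), a rise of 0.30 log2 (interval 0.14 to 0.46, adjusted p = 0.00295). Control array 4 just overlaps isopropanol array 4, and the two-sided exact permutation test gave p = 0.0571, where the smallest possible is 0.0286. With median centring the rise was 0.14 and was not called (adjusted p = 0.0926, the highest over the alternatives, which start at 7.16e-08), and RPL15B was then lower by 0.15 log2 (adjusted p = 0.00748, over alternatives 7e-05 to 0.972).

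The A and B copies were then compared within each array. Each pair has 1 value per array, A minus B, and only its change between groups was tested, since probes of different sequence bind with different strength and the level of A against B cannot be read from them. This change does not depend on a constant per array. Of 35 pairs, 34 had both copies tested. As groups the copies looked alike: all 34 A copies fell, with a median of -0.60 and an SD of 0.17 across genes, and 32 of 34 B copies fell, with a median of -0.58 and an SD of 0.30. Within pairs they did not always. In 21 of 34 pairs (61.8%) the copies changed by different amounts (limma, adjusted over all gene and pair rows), the A copy being the more reduced in 10 and the B copy in 11. At the same threshold, 77.8% of all genes were called for their own change in either direction. The share for differences between unrelated genes was not counted, so the number of pairs called does not by itself mark the pairs as divergent. The number of pairs called depends on the scale, since the fit shares its spread estimate and p adjustment over all rows: it was 12 without scaling and 1 on the spike-in scale, where the sizes of A minus B are the same and only the calls move, and 9 on the spike-in scale without isopropanol array 1. All 21 differences kept their sign in those settings. In 19 pairs (55.9%) the 4 isopropanol values of A minus B lay wholly to one side of the 4 control values. Of all 5816 genes, 4264 had groups that did not overlap, in either direction. The differences were mostly small, with a median size of 0.23 log2, and 4 pairs differed by more than 1.5-fold. The probe sequences are not used here, so the extent to which a probe for one copy also binds RNA of the other was not tested.

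**Figure D3:**
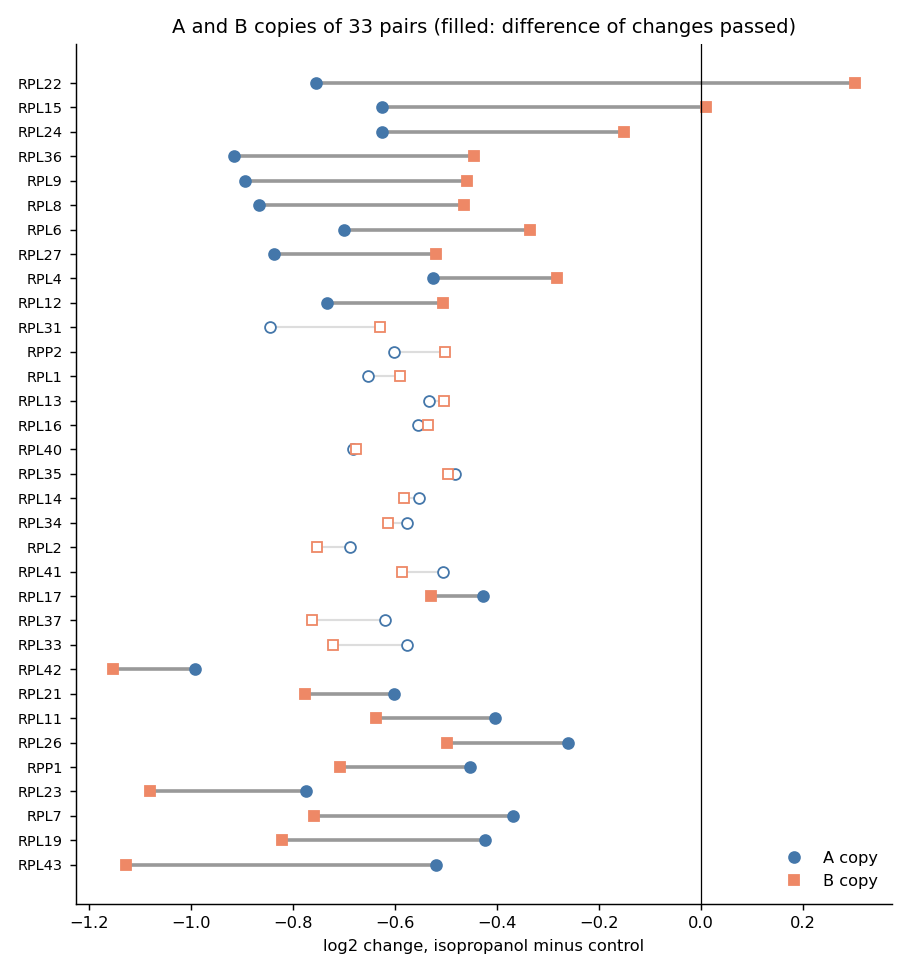
Change of the A copy and of the B copy for 33 of the 34 pairs, in log2 isopropanol minus control, ordered by the difference between the copies, with filled points where that difference was called. RPL22 and RPL15 lie at one end, where the A copy fell and the B copy did not, and RPL43 at the other, where the B copy fell further.

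RPL22 was the pair with the largest difference. RPL22A stood at 4.31, 4.25, 4.19 and 4.34 in the controls and at 3.52, 3.55, 3.53 and 3.49 with isopropanol, a 1.69-fold fall (adjusted p = 1.23e-07), while RPL22B rose. A minus B went from 4.56, 4.63, 4.49 and 4.38 to 3.41, 3.44, 3.46 and 3.52. The groups lay far apart, and the copies differed by 1.06 log2, or 2.08-fold (SE 0.06, interval -1.18 to -0.93, adjusted p = 7.4e-08). The Rpl22 protein is known in yeast to bind the RPL22B transcript and hinder its splicing. In RPL15, RPL15A went from 5.39, 5.53, 5.35 and 5.50 to 4.72, 4.80, 4.80 and 4.95, and A minus B from 5.87, 5.96, 5.85 and 5.94 to 5.18, 5.18, 5.28 and 5.43. The copies differed 1.55-fold (adjusted p = 4.88e-06). With quantile normalization the RPL15 difference was 0.079 log2 in the same direction and was not called (adjusted p = 0.205, over alternatives 1.12e-06 to 0.205).

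In the RPL43 pair the B copy fell further. RPL43A went from 3.80, 3.85, 3.82 and 3.95 to 3.34, 3.29, 3.32 and 3.40, and A minus B from -0.56, -0.43, -0.65 and -0.68 to 0.10, -0.15, -0.02 and 0.19. The copies differed 1.52-fold (0.61 log2, SE 0.08, adjusted p = 5.09e-05).

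**Figure D4:**
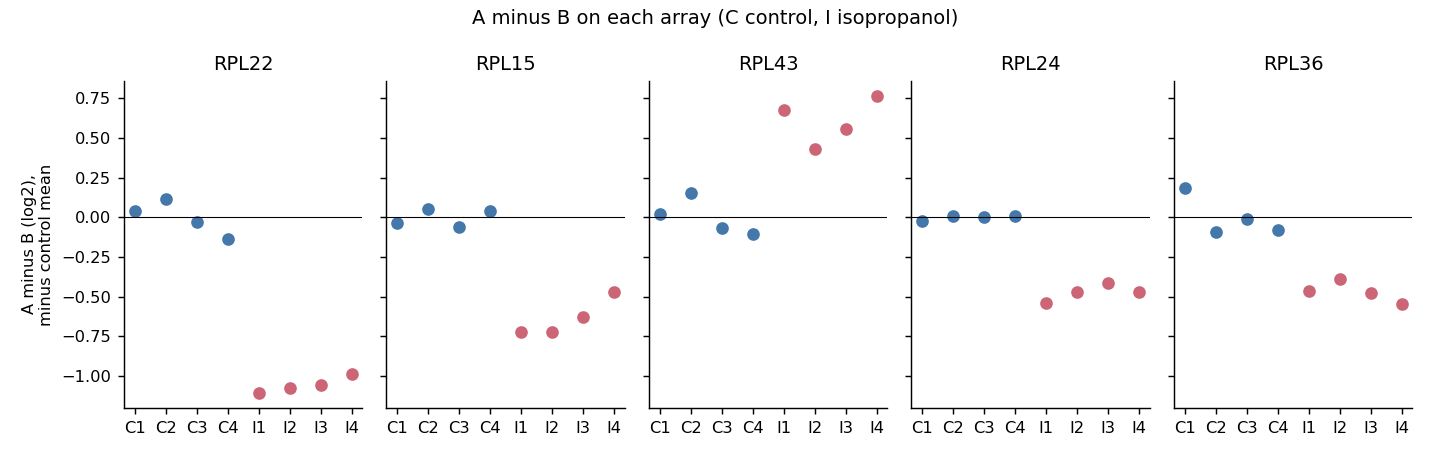
A minus B, in log2 and less its control mean, on each of the 4 control (C) and 4 isopropanol (I) arrays for 5 of the pairs whose copies differed most. In each of the 5 pairs the control and isopropanol points do not overlap.

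RPL24 and RPL36 were also among the pairs that differed most, with the A copy more reduced in both. In RPL24, the A copy went from 2.15, 2.26, 2.20 and 2.21 to 1.59, 1.56, 1.60 and 1.57 (1.54-fold lower), against the slight fall of RPL24B. A minus B moved from between -0.04 and -0.01 to between -0.56 and -0.43, and the copies differed 1.39-fold (adjusted p = 1.72e-06). RPL36B went from 3.81, 3.90, 3.83 and 3.90 to 3.45, 3.40, 3.39 and 3.42, and the RPL36 copies differed 1.38-fold (adjusted p = 7.88e-05). The copies of RPL9 and RPL8 differed 1.35-fold and 1.32-fold with A the more reduced, and those of RPL19 1.32-fold with B the more reduced. Of the stalk pairs, RPP1B fell 1.19-fold further than RPP1A (adjusted p = 0.00108).

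Other pairs moved closely together. The copies of RPL40 differed by -0.01 log2 (interval -0.12 to 0.11, adjusted p = 0.926), those of RPL35 by 0.01 (-0.08 to 0.11, adjusted p = 0.786) and those of RPL16 by -0.02 (-0.12 to 0.09, adjusted p = 0.727). Smaller differences than these intervals hold were not detectable with 4 arrays a group. The RPP2 copies differed by -0.10 (-0.33 to 0.13, adjusted p = 0.394), a wider interval. In RPL4 and RPL12 the difference rested in size on control array 1: A minus B changed by -0.24 and -0.23 with it and by -0.13 and -0.12 without it, with adjusted p = 0.0376 and 0.0332 without it (over alternatives 0.016 to 0.587 and 0.0108 to 0.612). Of 19 settings, with the reported one included and spike-in scaling aside, the call held in 11 for RPL4, 11 for RPL12, 9 for RPL11 and 7 for RPL17, and it was lost for each of them when one or another single array was left out. Across the 34 pairs the changes of A and of B had a Pearson r of -0.065 and a Spearman rho of -0.20, over pairs that share the arrays.

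The genes of the small subunit gave a similar picture: 56 of 57 were lower, with a median of -0.62 log2, and RPS28A and RPS29A fell most, by 1.05 and 1.0 log2. Of 10 chaperones that escort single large-subunit proteins to the ribosome, 9 were lower, with a median of -0.43, led by LOC1 (-0.84) and BCP1 (-0.76), the escort of Rpl23. Of 16 placeholder and late maturation factors, 12 were lower and 1 higher, with a median of -0.37, led by ALB1 (-0.83) and SDO1 (-0.68), which helps release the factor that keeps the subunits apart. Of 6 methyltransferases that modify large-subunit proteins, 2 were lower and 2 higher, with HPM1 at -0.46 and RKM3 at 0.35.

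Like those of the members, these counts hold relative to the 75th percentile. Without scaling, 5 small-subunit genes were lower and 1 higher, 1 chaperone was lower and 2 higher, and 0 placeholder and late factors were lower and 4 higher. On the spike-in scale 0 genes of any of these lists were lower, while 1 small-subunit gene, 3 chaperones, 5 placeholder and late factors and 4 methyltransferases were higher. The single higher call among placeholder and late factors became 3 with isopropanol array 4 left out, and 2 with control array 1 left out.

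Of 21 regulators of ribosomal protein genes, 4 were lower and 9 higher, with a median of 0.07, near that of all genes. CRF1, the corepressor that competes with Ifh1 for Fhl1, was 1.93-fold higher (adjusted p = 1.36e-07), but with normexp background correction its change was -0.013, and TOR2, a kinase of the TOR pathway, was 1.39-fold higher (adjusted p = 2.73e-06). The main activators were chosen for their role after their values were seen: RAP1 was at -0.40 (adjusted p = 0.00433), FHL1 at 0.37 (adjusted p = 0.0258), SFP1 at 0.19 (adjusted p = 0.0256) and IFH1 at -0.06 (adjusted p = 0.159). The groups of RAP1, SFP1 and IFH1 overlap. FHL1 stood at -4.13 on control array 1 and at -3.61 to -3.47 on the other control arrays. CRF1 and FHL1 were dim, with control means of -4.44 and -3.68, below the -2.93 of RPL7B, whose probe is described below as dim. The counts for the regulators turn with the scaling, to 10 lower and 4 higher with median centring, to 3 lower and 3 higher with normexp, and to 0 lower and 17 higher both without scaling and on the spike-in scale (0 and 19 there without isopropanol array 1). With isopropanol array 4 left out, 7 regulators were lower in place of 4. In the reported setting these lists are read beside the 29.7% lower and 48.1% higher of all genes, and in another setting beside that setting's own counts. Of all 5816 genes, 2441 were lower and 2016 higher with median centring, and 1395 and 1061 with normexp. Without scaling 172 were lower and 4366 higher. On the spike-in scale 19 were lower and 4543 higher (79 and 4886 there without isopropanol array 1). Nothing particular to the regulators or the methyltransferases follows from their counts. In the reported setting the small-subunit genes (98.2% lower), chaperones (90%) and placeholder and late factors (75%) lay above the 29.7% of all genes. No list was tested as a set.

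**Figure D5:**
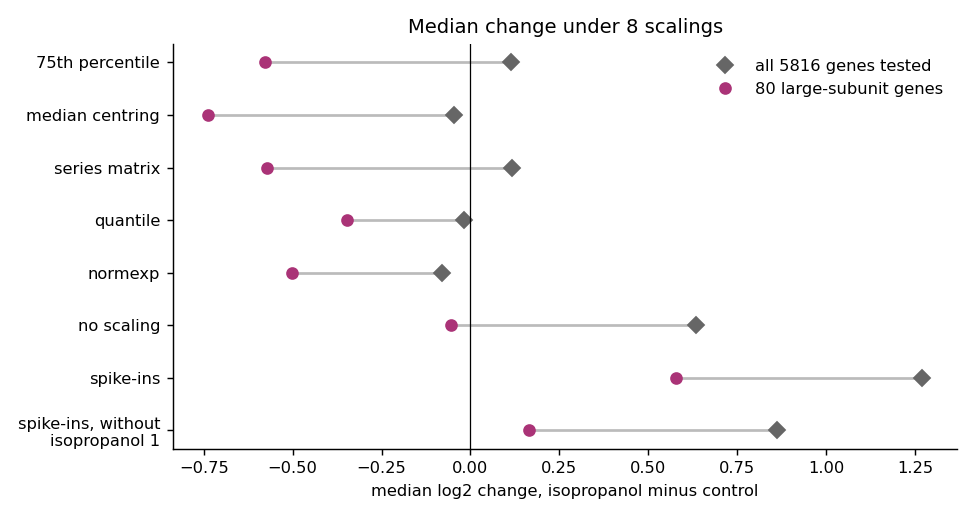
Median change of the large-subunit genes and of all genes tested under 8 ways of scaling the arrays, in log2 isopropanol minus control. The members' median (circles) lies below that of all genes (diamonds) in each of the 8, while their own median runs from -0.74 with median centring to 0.58 on the spike-in scale.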

How the data were processed

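Per the labels' protocols, RNA from BY4743 cultures given 0 or 40 g/l isopropanol was converted to Cyanine 3 labelled cRNA and put on 1-colour Agilent arrays. The sample descriptions give the dose in mg/l and the other labels in g/l, and g/l is used here. The scanner files were written by Agilent Feature Extraction 9.5.3.1 per the file headers (9 per the submitters' processing notes). Their deposited processed signal is a background-subtracted intensity with no scaling between arrays. The series matrix that the authors deposited is on a log2 scale. Compared with the scanner signal over 6256 probes, its values were relative to the 75th percentile (column medians -1.52 to -1.32), with the same direction, no centring of genes and other steps not given in the sources used here. The authors' deposited files also carry other columns, with spot flags.

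Processed signal was taken to log2 and the 75th percentile over yeast spots was subtracted. Control spots and spots flagged as outliers were left out, the 2 spots of a probe were averaged, and probes had to exceed background clearly on all arrays of 1 group or both. Where a gene had several probes, the brightest was used. All member spots were well above background, unsaturated and unflagged on every array. Symbols came from a RefSeq gene table (assembly R64), which matched 5765 probes by locus tag. The files use an older build, so no coordinates are printed. limma 3.58.1 (R 4.3.3) was fitted to all 5816 genes and the 34 A minus B rows, without a slide term, since each slide holds 1 group, and was tested on simulated data. The number of arrays limits the precision. Alternatives covered scaling, background correction, probe filters and averaging, the series matrix, an exact permutation test, the replicate number as a block and each array left out. Named were the stalk genes, single-copy members, members that rose or were not called, the 6 largest and 6 smallest called changes, the copies of the 6 most and 3 least different pairs, and the leading called genes of each other list, held to 2 of the 4 the rule allows. Others are named as examples, and 1 gene and its pair, kept in the fits and counts, are not reported here by name. Members and lists were chosen with earlier results of these data known.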

Additional observations from a re-analysis of the deposited data

Results flagged for a closer look

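In 144 groups of 4 arrays (the named genes and the A minus B values of 33 pairs), 13 held an array that stood apart from the other 3 by Dixon's test, which chance does in about 1 of 20 groups. Groups that share a gene or an array are not independent. Isopropanol array 4 was the one apart in 5 of them, control array 1 in 3, control array 2 and isopropanol array 3 in 2 each, and control array 4 in 1.

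On isopropanol array 4, RPP0 stood at 5.62 (others 5.47 to 5.49), RPP2A at 1.37 (others 1.85 to 1.95) and RPL7A at -0.60 (others -0.32 to -0.29). A minus B there was -0.59 for RPL19 (others -0.49 to -0.48) and 2.56 for RPL31 (others 2.94 to 3.00). On control array 1, RPL36A stood at 3.03 (others 2.84 to 2.85) and RPL4B at 4.73 (others 5.15 to 5.18), and A minus B was -0.030 for RPL12 (others -0.49 to -0.43). RPL25 stood at 3.97 on control array 4 (others 3.79 to 3.80) and at 3.20 on isopropanol array 3 (others 3.31 to 3.32). A minus B was -0.018 for RPL41 on control array 2 (others -0.15 to -0.14), 1.08 for RPL27 on control array 2 (others 1.23 to 1.24) and -0.64 for RPL12 on isopropanol array 3 (others -0.57 to -0.55).

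For RPL4B and RPL12B on control array 1, the spots that read low lay in the same row of the array (row 174, columns 5 and 4). They read 32853 and 25364 signal units against 60005 and 43519 for the second spot of the same probe. With spots left out where duplicates differed by over 0.5 log2, an alternative chosen after seeing the data, the change of RPL4B was -0.39 and 22 pairs were called.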

How the results depend on the processing

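Scaling between arrays decides the count of members called lower. It was 63 with quantile normalization (median -0.35), 79 with median centring (median -0.74, 0 higher), 10 without scaling (3 higher, median -0.056, 12 pairs called), 0 on the spike-in scale (3 higher, median 0.58, 1 pair) and 2 on that scale with isopropanol array 1 left out (6 higher, median 0.16, 9 pairs). It was 74 with normexp, 78 with the series matrix, 77 to 78 with each array left out in turn (median -0.61 to -0.56, 1 higher, 17 to 21 pairs), and 77 by the exact permutation test at an unadjusted p of 0.05 (0 higher, 19 pairs). Of all 5816 genes, 2235 were lower with quantile normalization, 2441 with median centring and 1395 with normexp. That count was 172 without scaling, 19 on the spike-in scale and 79 there without isopropanol array 1. Of 39 named members, 26 kept call and direction in the 17 alternatives other than the spike-in and unscaled ones. Of 21 called pairs, 9 kept call and sign in the 19 settings other than spike-in scaling (the reported one included), among them RPL7, RPL8, RPL9, RPL19, RPL22, RPL24, RPL36 and RPL43. For RPL7 the groups overlap in A minus B, and the exact permutation test gave p = 0.0571. The RPL7B probe was dim, with mean signals of 206 in the controls and 175 with isopropanol. With the replicate block 78 members were lower, 1 higher, and 19 pairs were called. Deviations of same-numbered arrays correlated at -0.16 to 0.04, which gave no sign that the numbers pair the arrays but cannot exclude it. The unscaled and duplicate-spot alternatives were chosen after seeing the data. The causes of these shifts beyond the constants themselves were not tested.

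These changes took the opposite sign (log2). With median centring: RPL15B -0.15. With normexp: A minus B of RPL17 -0.073, CRF1 -0.013 and RPL24B 0.014. With quantile normalization: A minus B of RPL21 -0.038, RPL24B 0.026, RPL5 0.030, RPL30 0.042 and RPL4B 0.17. Without scaling: RPL43A 0.004, RPP2B 0.021, RPL35B 0.027, RPL32 0.029, RPL35A 0.040, RPL3 0.051, HPM1 0.063, RPP1A 0.070, RPL39 0.072, RPL36B 0.078, RPL30 0.11, RPL5 0.12, RPL7A 0.16, RPL6B 0.19, RPL4B 0.24, RPL26A 0.26 and RPL24B 0.37. On the spike-in scale: RPL42B 0.0034, RPL18B 0.019, RPL43B 0.030, RPL23B 0.077, RPS28A 0.11, RPS29A 0.15, RPL42A 0.16, RPL36A 0.24, RPL29 0.30, LOC1 0.32, ALB1 0.33, RPL38 0.38, RPL28 0.38, BCP1 0.40, RPL22A 0.40, RPP1B 0.45, RPL10 0.45, SDO1 0.47, RPL40A 0.47, RPL40B 0.48, RPL15A 0.53, RPL24A 0.53, RPP2A 0.56, RPL16A 0.60, RPL25 0.61, RPL16B 0.62, RPP0 0.63, RPL43A 0.64, RPP2B 0.65, RPL35B 0.66, RPL32 0.66, RPL35A 0.67, RPL3 0.68, HPM1 0.70, RPP1A 0.70, RPL39 0.71, RPL36B 0.71, RPL30 0.74, RPL5 0.75, RPL7A 0.79, RPL6B 0.82, RPL4B 0.87, RPL26A 0.90 and RPL24B 1.01. On that scale without isopropanol array 1: RPL40B 0.052, RPL10 0.057, RPL40A 0.064, SDO1 0.065, RPP1B 0.073, RPL24A 0.12, RPP2A 0.12, RPL15A 0.16, RPL25 0.19, RPL43A 0.23, RPL16A 0.23, RPP0 0.24, RPL16B 0.24, RPP2B 0.25, RPL32 0.25, RPL35B 0.25, RPL35A 0.26, RPL39 0.27, RPL3 0.28, HPM1 0.29, RPL36B 0.29, RPP1A 0.32, RPL30 0.34, RPL5 0.34, RPL7A 0.36, RPL6B 0.40, RPL4B 0.47, RPL26A 0.47 and RPL24B 0.57.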

Other observations

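Genes next to the large-subunit genes on the chromosomes were also measured. By gene order in the RefSeq table, 139 tested neighbours lay outside the cytosolic ribosomal protein lists, and of these 43 (30.9%) were lower and 74 (53.2%) higher, with a median of 0.20 log2 relative to the 75th percentile. Over all genes tested 29.7% were lower and 48.1% higher, with a median of 0.11, so the neighbours' shares lay near the background. In 7 places a member lies beside a small-subunit gene, and there both genes fell. Wherever they lay, 78 of 80 members and 56 of 57 small-subunit genes were lower, so nothing about adjacency follows from this. The neighbours include copies of the same ancestral block: RPS16B beside RPL13A was at -0.74 and RPS16A beside RPL13B at -0.55. These neighbours were named after their values were seen, and whether adjacent genes differ from other genes was not tested.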
